A study of Mus musculus with 2 samples.

Results

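The let-7 genes that lie outside the Mir99 and Mir125 clusters were measured in gastrocnemius, the large calf muscle, of mouse. They were taken from the tables by their annotated symbols and number 9 of the 2202 microRNA (miRNA) genes counted: Mirlet7a-1, Mirlet7f-1, Mirlet7d, Mirlet7b, Mirlet7c-2, Mirlet7f-2, Mir98, Mirlet7g and Mirlet7i. The muscle was from adult female mouse, 18 to 20 months old, of the F1 hybrid B6CASTF1/J, with no treatment named. MicroRNA-seq reads short RNAs and counts them on miRNA genes; here 1 group of 2 libraries, biological replicates 1 and 2, was read. The labels give both libraries a single donor entry and separate tissue entries, so the spread between them may be technical, and no condition is compared.

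The let-7 miRNAs were first found in Caenorhabditis elegans as timers of development. In mammals they accumulate as cells differentiate, and they lower the output of growth genes such as Hmga2, Igf2bp and Ras family genes. A target is recognised mainly through the seed, bases 2 to 8 of the mature miRNA. Lin28 proteins bind let-7 precursors and block their maturation, so let-7 is scarce in early embryonic cells and abundant in adult tissue such as muscle. In mice, let-7 also lowers parts of the insulin signalling pathway.

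The 9 genes encode 8 distinct mature miRNAs from the 5′ arm of the hairpin (5p), shown here because their likeness decides which reads can be assigned to a gene. Capitals mark the seed, and the sequences are RefSeq's for GRCm38.p6, written 5′ to 3′.
let-7a-5p: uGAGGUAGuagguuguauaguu
let-7b-5p: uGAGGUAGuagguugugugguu
let-7c-5p: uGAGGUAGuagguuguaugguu
let-7d-5p: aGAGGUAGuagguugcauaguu
let-7f-5p: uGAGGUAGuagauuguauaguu
let-7g-5p: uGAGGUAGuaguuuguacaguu
let-7i-5p: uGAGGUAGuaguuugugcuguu
miR-98-5p: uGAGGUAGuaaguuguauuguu

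All 8 share the seed and a length of 22 bases. Counted from the 5′ end and read from let-7a-5p, let-7c-5p differs by A19G, let-7f-5p by G12A and let-7b-5p by A17G and A19G. The changes of let-7d-5p are U1A and U16C, those of let-7g-5p are G12U and U18C, and those of miR-98-5p are G11A and A19U. The sequence of let-7i-5p lies farthest from let-7a-5p, with the 4 changes G12U, A17G, U18C and A19U. Outside the 9 genes and the let-7 genes of the Mir99 and Mir125 clusters, the 1738 mature miRNA entries of the RefSeq table hold this seed in Mir7k and Mir1961, and both had 0 counts in both libraries.

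The genes differ in whether a read can be assigned to them. In 5 genes, Mirlet7b, Mirlet7d, Mirlet7g, Mirlet7i and Mir98, the mature 5p sequence occurs in no other annotated hairpin, and a stretch of 15 to 17 bases from its start is already unique. In the other 4 the whole 22-base 5p sequence also lies in a hairpin of another chromosome: let-7a in Mirlet7a-1 and Mirlet7a-2, let-7c in Mirlet7c-1 and Mirlet7c-2, and let-7f in Mirlet7f-1 and Mirlet7f-2. The hairpins part only after the annotated end. The next stretches give those 22 bases and, in capitals, the 3 bases that follow in each hairpin (mm10, GENCODE M21 hairpins).
Mirlet7f-1, chr13:48537886-48537910, minus strand: ugagguaguagauuguauaguuGUG
Mirlet7f-2, chrX:151912353-151912377, plus strand: ugagguaguagauuguauaguuUUA
Mirlet7a-1, chr13:48538236-48538260, minus strand: ugagguaguagguuguauaguuUUA
Mirlet7a-2, chr9:41536732-41536756, plus strand: ugagguaguagguuguauaguuUAG
Mirlet7c-1, chr16:77599672-77599696, plus strand: ugagguaguagguuguaugguuUAG
Mirlet7c-2, chr15:85706616-85706640, plus strand: ugagguaguagguuguaugguuUUG

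A let-7f read therefore fits a single hairpin from 23 bases on, and a let-7a or let-7c read from 24 bases on. The 3′ arms (3p) add a further overlap, since Mirlet7a-1 and Mirlet7c-2 encode the same 22-base 3p miRNA, again unique to its hairpin only from 24 bases.
let-7a-1-3p and let-7c-2-3p: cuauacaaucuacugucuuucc
The 3p sequences of the other 7 genes are unique from 15 bases on. Because reads that map to several places enter no gene count, the counts of Mirlet7a-1, Mirlet7f-1, Mirlet7c-2 and Mirlet7f-2 leave out reads that fit both loci. Multimapping reads are missing from the gene totals as well, so a level in counts per 1000000 gene counts (CPM) is a share of the reads assigned to a gene. The gene counts do not separate 5p from 3p reads.

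Replicate 1 held 6888732 reads and replicate 2 held 12001270, and 865419 and 2177048 of them were counted on miRNA genes in the sense direction. Multimapping reads numbered 5556809 and 8516459, or 6.42 and 3.91 for each read counted on a miRNA gene. For each read counted on the 9 genes there were 36.8 and 20.1. That tally is not split by origin, so the part of it from let-7 loci is not known. All 8 miRNA genes of the skeletal muscle list had counts in both libraries and summed to 40925 CPM in replicate 1 and 104458 CPM in replicate 2. Mir206 alone made up 40389 and 103232 CPM of these sums, while Mir1a-2 stood at 270 and 162 CPM and Mir1a-1 at 25.42 and 22.05 CPM. Multimapping reads are missing from the counts of these genes too, so a low level here need not mean a scarce miRNA. Whether genes of the cell type lists share a mature sequence with another locus was not tested. Endothelial Mir126a stood at 47279 and 52968 CPM, and the smooth muscle genes Mir143 and Mir145a summed to 75404 and 37985 CPM. The 4 leukocyte genes summed to 3619 and 4085 CPM, the 4 fibroblast genes, of which Mir199a-1 was at 0 in replicate 2, to 633 and 1383 CPM, both erythroid genes to 230 and 316 CPM, and liver Mir122 stood at 10.4 and 95.1 CPM. Members of a list did not all go the way of its sum: Mir142 stood at 246 and 96.0 CPM and Mir223 at 278 and 123 CPM in the leukocyte list, and Mir199a-2 at 15.02 and 5.97 CPM and Mir199b at 50.8 and 41.8 CPM beside Mir214 at 564 and 1335 CPM in the fibroblast list. In this bulk tissue, more cells of a type and more RNA per cell cannot be told apart, and the part of these cell types in the let-7 levels was not tested.

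Together the 9 genes made up 17.5% of all gene counts of replicate 1 (17.4 to 17.5, the Clopper-Pearson interval, as for all shares) and 19.4% of those of replicate 2 (19.4 to 19.5), a mean of 18.4% ± 1.41 (SD, n = 2, as for every ± here). All 9 had counts in both libraries, and all passed the filter of a mean of at least 10 counts. The 5 genes whose 5p miRNA comes from a single locus held 94.9% of the 9 genes' counts in replicate 1 (94.8 to 95.03) and 95.5% in replicate 2 (95.5 to 95.6). The counts of the family were therefore mostly reads of let-7i, let-7g, let-7b, let-7d and miR-98 hairpins, and reads of a shared 5p miRNA that fit both loci are missing from the other 4.

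The order of levels ran over more than 2 orders of magnitude. A read here is a whole short RNA and not a fragment, so CPM is not divided by length; divided by the length of the hairpin gene, all 9 genes kept their place. At the top, Mirlet7i and Mirlet7g did not differ beyond their spread, and neither did Mirlet7b and Mirlet7d after them. Mirlet7f-2, Mir98 and Mirlet7c-2 followed, each below its upper neighbour in both libraries and, in the means, by more than the larger SD, and Mirlet7a-1 and Mirlet7f-1, which changed places between libraries, closed the order.

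**Figure D1:**
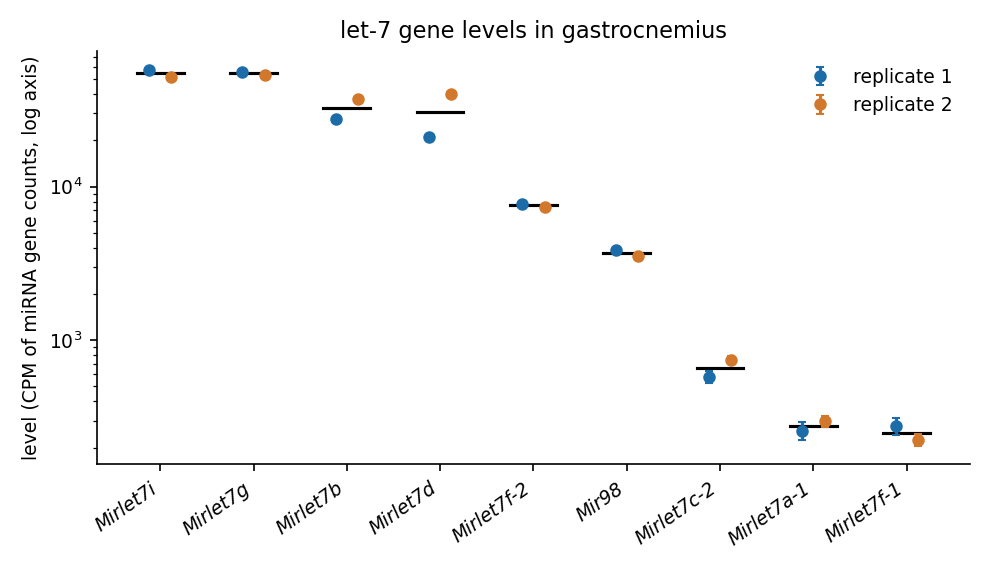
Level of each of the 9 let-7 genes in CPM on a log axis, with replicate 1 and replicate 2 as points, exact Poisson intervals as bars (mostly smaller than the points) and the mean as a line. Mirlet7i and Mirlet7g lie between 52072 and 57323 CPM, and Mirlet7a-1 and Mirlet7f-1 lie between 226 and 297 CPM.

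Mirlet7i and Mirlet7g, each the only one of the 9 on its chromosome, were the most counted members. Mirlet7i (ENSMUSG00000065406.3, chr10:122985640-122985724, minus strand, in an exon of the transcribed pseudogene D630033A02Rik) reached 57323 CPM in replicate 1 (exact Poisson interval 56819 to 57829) and 52072 CPM in replicate 2 (51769 to 52376). Mirlet7g (ENSMUSG00000065440.1, chr9:106178840-106178927, plus strand, in an intron of Wdr82, which encodes a subunit of a histone H3 lysine 4 methyltransferase complex) stood at 55843 CPM (55347 to 56344) and 53355 CPM (53048 to 53663). The counts of Mirlet7i were 1.03 times those of Mirlet7g in replicate 1 (exact interval 1.01 to 1.04) and 0.976 times in replicate 2 (0.968 to 0.984), so their order turned between libraries. By CPM, Mirlet7i held rank 3 among all miRNA genes in replicate 1 and rank 6 in replicate 2, and Mirlet7g held rank 4 in both. Together they held 64.8% of the 9 genes' counts in replicate 1 and 54.2% in replicate 2, or 59.5% ± 7.52.

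Mirlet7b and Mirlet7d were next and, with gene counts as the total, varied more between libraries than Mirlet7i and Mirlet7g. For Mirlet7b this depends on the total. With TMM the log2 ratio of replicate 1 to replicate 2 was -0.13 for Mirlet7b and -0.65 for Mirlet7d, against 0.35 for Mirlet7g and 0.42 for Mirlet7i. Mirlet7b (ENSMUSG00000065564.1, chr15:85707319-85707403, plus strand, in an exon of the noncoding RNA Lncppara) had levels of 27687 CPM in replicate 1 and 36949 CPM in replicate 2. Mirlet7d (ENSMUSG00000065453.1, chr13:48536012-48536114, minus strand, within an exon of 6720427I07Rik, a long noncoding RNA) stood at 20909 and 39917 CPM. Both had the higher CPM in replicate 2 (with DESeq2 size factors the log2 ratio of Mirlet7b was 0.0014), and Mirlet7d, below Mirlet7b in replicate 1, lay above it in replicate 2. With gene counts as the total, the mean of Mirlet7d, 30413 ± 13441 CPM, carries the widest relative spread of the 9. Its coefficient of variation is 44.2%, against 3.22% for Mirlet7g and a median of 34.0% over all 305 tested miRNA genes. With DESeq2 size factors the log2 ratio of Mirlet7d was -0.52, smaller in size than 0.70 for Mirlet7f-1 and 0.56 for both Mir98 and Mirlet7i, and that of Mirlet7g was 0.48.

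Mirlet7f-2 and Mir98 lie in an intron of Huwe1, the gene of a HECT-type ubiquitin ligase. Mirlet7f-2 (ENSMUSG00000065602.1, chrX:151912346-151912428, plus strand) reached 7766 CPM in replicate 1 and 7397 CPM in replicate 2. Mir98 (ENSMUSG00000065536.2, chrX:151913214-151913321, plus strand) stood at 3881 and 3514 CPM. Both libraries thus held fewer Mir98 than Mirlet7f-2 reads, although the 5p miRNA of Mir98 is unique and that of Mirlet7f-2 is not.

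The 3 lowest members all share their 5p miRNA with another locus. Mirlet7c-2 (ENSMUSG00000065608.1, chr15:85706603-85706697, plus strand, in an exon of Lncppara) had 499 counts in replicate 1 and 1629 in replicate 2, or 577 and 748 CPM. Mirlet7a-1 (ENSMUSG00000065421.3, chr13:48538179-48538272, minus strand) had 222 and 646 counts, or 257 CPM (224 to 293) and 297 CPM (274 to 321). Mirlet7f-1 (ENSMUSG00000105621.1, chr13:48537829-48537917, minus strand) had 238 and 491 counts, or 275 CPM (241 to 312) and 226 CPM (206 to 246). Both lie in exons of 6720427I07Rik. Mirlet7f-1 is also faced on the other strand by the annotated miRNA gene Gm24111, which had 0 sense counts in replicate 1 and 1 in replicate 2. The unstranded column lists Mirlet7f-1 at 0 in both libraries. Gm24111 had 238 and 491 antisense counts, the same numbers as the sense counts of Mirlet7f-1.

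**Figure D2:**
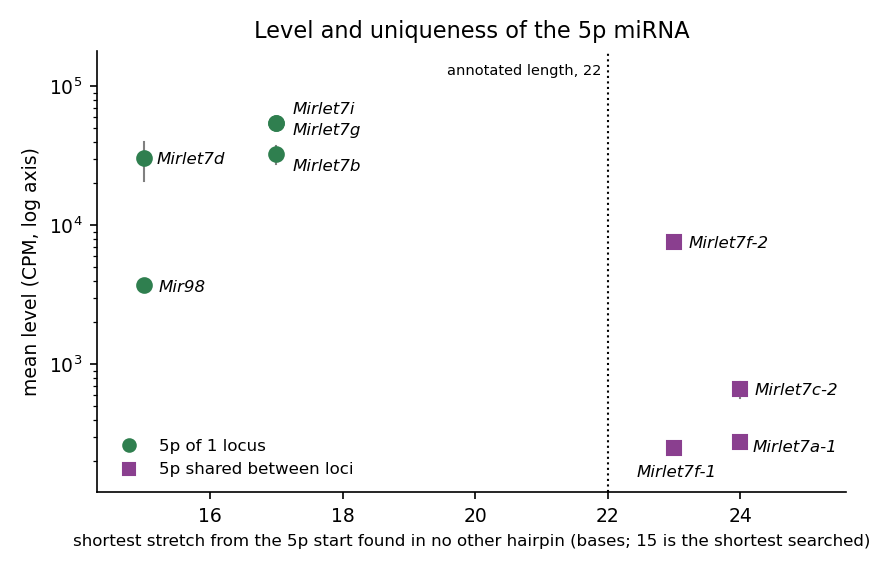
Mean level of each gene in CPM (log axis) against the shortest stretch, in bases from the start of its 5p miRNA, that occurs in no other annotated hairpin; grey lines span both libraries. The 5 genes unique within 17 bases lie at 3698 CPM or above, and of the 4 that need 23 or 24 bases, Mirlet7f-2 alone lies above Mir98.

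Levels and uniqueness can be set side by side for all 9 genes, as in the plot of level against the shortest unique stretch. The 5 genes with a unique 5p miRNA ranged from 3698 ± 259 CPM for Mir98 to 54697 ± 3713 CPM for Mirlet7i. The 4 genes with a shared 5p miRNA ranged from 250 ± 34.99 CPM for Mirlet7f-1 to 7582 ± 261 CPM for Mirlet7f-2. The let-7f pair shows unequal counts at equal shared length: Mirlet7f-2 had 28.2 times the counts of Mirlet7f-1 in replicate 1 (exact interval 24.8 to 32.3) and 32.8 times in replicate 2 (30.0 to 36.0). As the stretches above show, the let-7f hairpins part at the first base after the annotated end. Reads that fit both hairpins are in neither count, so this ratio describes the assigned reads only. Which bases the counted reads end in was not tested, since the reads were not analysed here. Between the let-7c loci, Mirlet7c-2 had 2.61 times the counts of Mirlet7c-1 in replicate 1 (2.21 to 3.10) and 1.89 times in replicate 2 (1.74 to 2.05). Between the let-7a loci, Mirlet7a-1 had 1.83 times the counts of Mirlet7a-2 in replicate 1 (1.46 to 2.31) and 1.52 times in replicate 2 (1.34 to 1.72).

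Genes of the 3 clusters were counted at unequal levels, and a ratio within a library does not depend on the library total. On chromosome 13, Mirlet7a-1, Mirlet7f-1 and Mirlet7d follow each other in this order along the minus strand, with 261 and 1714 bases between hairpins. Mirlet7d had 81.5 times the counts of Mirlet7a-1 in replicate 1 (71.4 to 93.5) and 135 times in replicate 2 (125 to 146), a mean log2 ratio of 6.71 ± 0.51. Against Mirlet7f-1 it had 76.0 times the counts in replicate 1 (66.9 to 86.8) and 177 times in replicate 2 (162 to 194), a mean log2 ratio of 6.86 ± 0.86. For both pairs the intervals of the libraries did not overlap. Mirlet7f-1 and Mirlet7a-1 stood close to each other, at a ratio of 1.07 in replicate 1 (0.889 to 1.29) and 0.760 in replicate 2 (0.675 to 0.856).

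On chromosome 15, 621 bases lie between Mirlet7c-2 and Mirlet7b. Mirlet7b had 48.0 times the counts of Mirlet7c-2 in replicate 1 (43.9 to 52.6) and 49.4 times in replicate 2 (47.0 to 51.9), a mean log2 ratio of 5.61 ± 0.029. On chromosome X, 785 bases lie between Mirlet7f-2 and Mir98. Mir98 had 0.4998 times the counts of Mirlet7f-2 in replicate 1 (0.479 to 0.521) and 0.475 times in replicate 2 (0.462 to 0.488), a mean log2 ratio of -1.04 ± 0.052. In these clusters the intervals of the libraries overlapped. In each cluster the 5p miRNA of the last gene occurs in no other annotated hairpin and that of each gene before it does. What the reads shared between loci would change in these ratios was not tested.

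**Figure D3:**
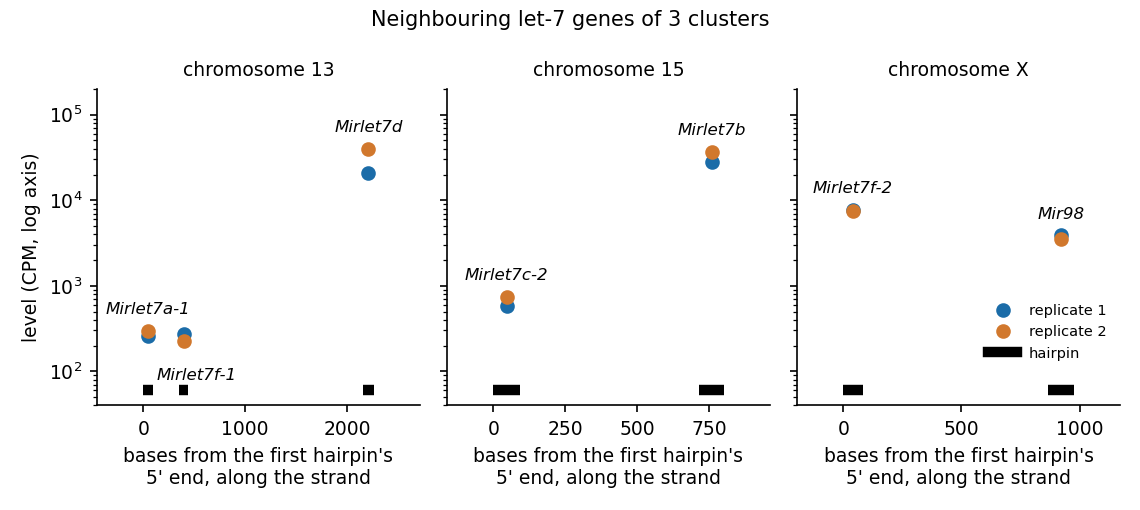
Level in CPM (log axis) of the genes of the chromosome 13, 15 and X clusters at their distance, in bases, from the 5′ end of the first hairpin along the coding strand; black bars are hairpins. Mirlet7d and Mirlet7b exceed their upstream neighbours by 48.0 to 177 times within a library, and Mir98 has 0.475 to 0.4998 times the counts of Mirlet7f-2.

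By cluster, the chromosome 13 genes held 12.3% of the 9 genes' counts in replicate 1 (12.1 to 12.5) and 20.8% in replicate 2 (20.7 to 20.9). The chromosome 15 genes held 16.2% (16.0 to 16.4) and 19.4% (19.3 to 19.5), and the chromosome X genes 6.67% (6.55 to 6.80) and 5.61% (5.54 to 5.68). The chromosome 13 share moved most, and Mirlet7d made up 97.5% of that cluster in replicate 1 and 98.7% in replicate 2.

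Between the libraries, 0 of the 9 genes were called, against 33.8% of all 305 tested genes, where a call needs a ratio of at least 2 either way and a Benjamini-Hochberg adjusted p under 0.05 in the exact conditional binomial test. At that adjusted p alone, 8 of 9 differed by the same test, against 67.9% of all tested genes, and the same 8 had an unadjusted p under 0.05. With gene counts as the total, Mirlet7i, Mirlet7g, Mirlet7f-2, Mir98 and Mirlet7f-1 were higher in replicate 1 and Mirlet7d, Mirlet7b and Mirlet7c-2 in replicate 2, and each of these directions but that of Mirlet7d turned under another total. The exception was Mirlet7a-1, with a ratio of replicate 1 to replicate 2 of 0.864 (0.739 to 1.01, adjusted p = 0.0929 by the exact binomial test). This test sees counting error only, which is small at these depths, and it says nothing of animals.

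The log2 ratio of replicate 1 to replicate 2 ran from -0.93 for Mirlet7d to 0.29 for Mirlet7f-1 among the 9 genes, with a median of 0.07, against a median of -0.43 over all tested genes. The absolute log2 ratio had a median of 0.21 over the 9 genes and 0.71 over all tested genes, of which 62.3% lay within 2-fold. These medians depend on the total: TMM gave 0.35 over the 9 genes and 0.70 over all tested genes, DESeq2's size factors gave 0.49 and 0.70, and all reads as the total gave 0.46 and 1.01. With a mean of at least 100 counts, which all 9 genes have, 70.6% of 170 genes lay within 2-fold. Mirlet7g had 1.05 times (exact interval 1.04 to 1.06) and Mirlet7i 1.10 times (1.09 to 1.11) the CPM of replicate 2 in replicate 1. The ratio was 0.749 (0.739 to 0.760) for Mirlet7b and 0.524 (0.515 to 0.532) for Mirlet7d. With gene counts as the total, Mirlet7d was the member nearest to the 2-fold threshold. With all reads of the file as the total, where the multimapping tally enters, Mirlet7d passed it at a log2 ratio of -1.46, and all 9 genes lay on the side of replicate 2. The total also sets the direction of the others: with TMM, 6 genes lay on the side of replicate 1, and with DESeq2 size factors 8 did, all but Mirlet7d.

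**Figure D4:**
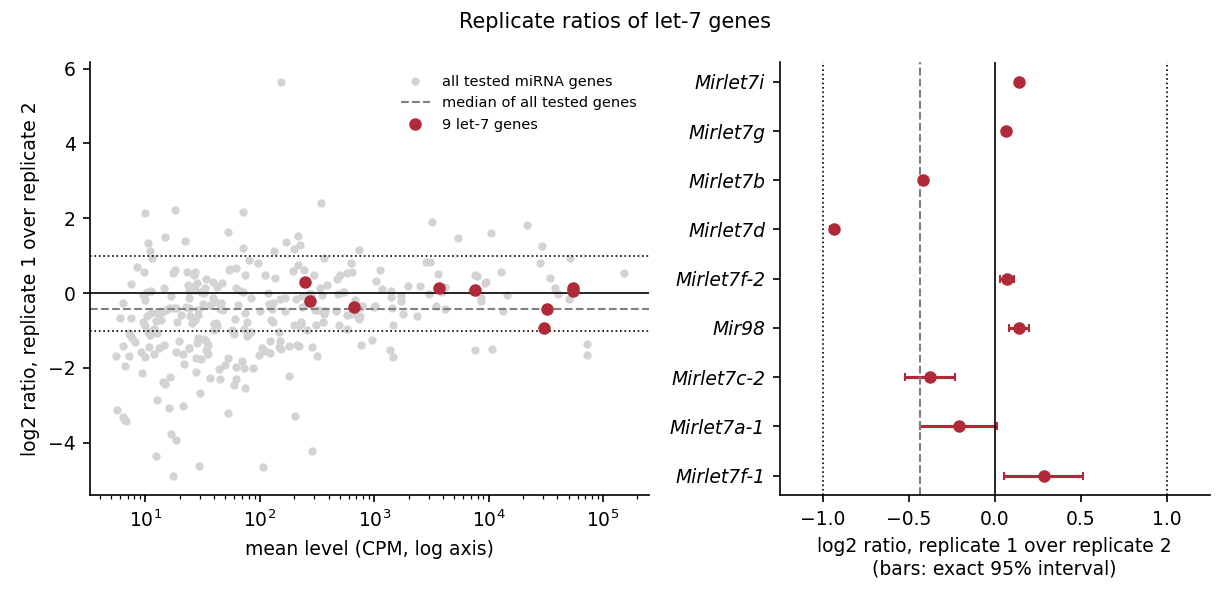
Log2 ratio of replicate 1 over replicate 2, on the left against mean CPM (log axis) for all 305 tested miRNA genes, and on the right for the 9 let-7 genes with exact 95% intervals; dotted lines mark 2-fold and the dashed line the median of all tested genes. With gene counts as the total the 9 genes lie between -0.93 and 0.29, inside the 2-fold lines.

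The other let-7 genes in the table were Mirlet7e, Mirlet7c-1, Mirlet7a-2, Mir7j (let-7j) and Mir7k (let-7k), and all of them stood far below the 4 highest members. Mirlet7e, whose 5p miRNA is unique, reached 3516 CPM in replicate 1 and 4751 CPM in replicate 2, near Mir98. Mirlet7c-1 stood at 221 and 396 CPM, Mirlet7a-2 at 140 and 195 CPM, and Mir7j had 18 and 60 counts. The 9 genes thus held 97.8% of all let-7 gene counts in replicate 1 (97.7 to 97.9) and 97.3% in replicate 2 (97.3 to 97.4). Mirlet7c-1 and Mirlet7a-2 share their 5p miRNA with Mirlet7c-2 and Mirlet7a-1, and reads that fit both loci are missing from their counts too. These levels and shares therefore describe the assigned reads only. Of the 4 other let-7 genes tested, 0 were called between libraries, against 33.8% of all 305 tested genes. Their median log2 ratio was -0.46, near the median of -0.43 over all tested genes.

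By level over both libraries, some members lay next to each other. Likeness was measured as the Euclidean distance in log2(CPM + 1) over the 2 libraries, which ranks genes by level and carries no further pattern. Mirlet7g and Mirlet7i were each other's nearest gene at a distance of 0.052, with endothelial Mir126a next to both, at 0.24 from Mirlet7g and 0.28 from Mirlet7i. Mirlet7b and Mirlet7d were each other's nearest gene at 0.42, followed by Mir23b and Mir23a. Mirlet7f-2 lay nearest to Mir27b (0.11) and Mir98 to Mir28a (0.14). Mirlet7c-2 lay nearest to Mir338 (0.064), Mirlet7a-1 to Mir374b (0.13) and Mirlet7f-1 to Mir184 (0.26).

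The letters GGAG, which Lin28 binds in let-7 precursors, were searched on the transcribed strand of each whole hairpin. They occur in 6 of the 9 hairpins, those of Mirlet7a-1, Mirlet7f-1, Mirlet7d, Mirlet7f-2, Mirlet7g and Mirlet7i, and in 37.2% of all 2202 annotated hairpins. These 6 genes span the order from Mirlet7i to Mirlet7f-1. The hairpins of Mirlet7b, Mirlet7c-2 and Mir98 do not hold these letters.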

How the data were processed

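The deposited values are raw counts of reads per miRNA gene, on assembly mm10 with GENCODE M21 per the deposited README. For the aligner, the counter and adapter trimming, nothing is given in the sources used here. A file holds 4 tallies and 2202 genes, with 3 unnamed count columns that their values mark as unstranded, sense and antisense. The sense column was used. Reads that map to more than 1 place have their own tally and enter no gene count, and all tallies stayed out of the totals.

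CPM is the sense count per 1000000 gene counts. Every gene whose counts averaged 10 or more entered a two-sided conditional binomial test, exact, of replicate 1 against replicate 2, with p-values adjusted over all such genes (Benjamini-Hochberg). A call needed adjusted p < 0.05 together with a 2-fold or larger ratio. With 1 group, edgeR's quasi-likelihood test has no contrast, so the test compares libraries and their counting error. It was checked on simulated Poisson counts without spread between libraries beyond counting error, so that check covers counting error only. Levels have exact Poisson intervals and shares exact Clopper-Pearson intervals, at 95%, and these cover counting error only, since reads are not independent molecules.

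Symbols, positions and hairpins came from GENCODE M21 and mature sequences from RefSeq (GRCm38.p6); all 9 genes matched. Stretches of at least 15 bases were searched on both strands of all 2202 hairpins, not in the genome. The genes named are the 9, others with a let-7 name or seed, same-strand neighbours, host genes and the 3 genes nearest in log2(CPM + 1). The genes of the cell type lists and Gm24111, which faces Mirlet7f-1 on the other strand, are named as well. Members and lists were chosen with earlier results of these data known. Alternatives were the unstranded column, other totals, edgeR 4.0.16 TMM, DESeq2 1.42.0 size factors, other filters, no ratio threshold, per-length levels and leaving out a library. Tools were Python 3.11.15, NumPy 2.4.6, SciPy 1.17.1, pandas 2.3.3, matplotlib 3.10.9 and R 4.3.3.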

Additional observations from a re-analysis of the deposited data

Results flagged for a closer look

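Mirlet7b had 9 antisense counts in replicate 2, above the limit of 3 counts set here for a count of 0, in a column the comparisons above do not use. It had 1 antisense count in replicate 1 and 80440 sense counts in replicate 2.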

How the results depend on the processing

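The number of the 9 genes called between libraries stayed at 0 with the unstranded column (8 tested), against 32.6% of all 282 tested genes. It was also 0 without the top gene in the totals (33.8% of all tested genes), with TMM (32.1%) and with DESeq2 size factors (31.8%). Without a filter it was 0 against 17.3% of 606 genes, and with a mean of at least 100 counts 0 against 29.4% of 170. All reads as the total gave 1 (Mirlet7d), against 48.2% of all tested genes, and the adjusted p alone gave 8, against 67.9%. Over all 305 tested genes, 147 were called with all reads as the total, against 103 with gene totals (82 higher in replicate 2, 79.6%). TMM called 98 (67.3% higher in replicate 2) and DESeq2 size factors 97 (59.8%). Against gene totals, TMM shifted every log2 ratio by 0.28, DESeq2 size factors by 0.42 and all reads by -0.53. The median log2 ratio of the 9 genes was accordingly 0.35 with TMM, 0.48 with DESeq2 size factors, -0.46 with all reads, 0.16 without the top gene and 0.020 with the unstranded column. The direction turned with all reads for Mirlet7f-1 (-0.24), Mirlet7f-2 (-0.46), Mir98 (-0.39), Mirlet7g (-0.46) and Mirlet7i (-0.39), with TMM for Mirlet7a-1 (0.072) and with DESeq2 size factors for Mirlet7a-1 (0.21), Mirlet7b (0.0014) and Mirlet7c-2 (0.042). The share of the 9 genes was 24.0% of unstranded counts, 21.8% without the top gene and 2.86% of all reads, and 17.5% to 19.4% with either library left out. Unstranded counts summed to 644072 in replicate 1 and 1726574 in replicate 2, fewer than the sense counts. The share of the 5 genes with a 5p miRNA of a single locus stayed between 94.9% and 95.5% with either library left out and was 95.4% of unstranded counts. Per 100 bases of hairpin, the log2 ratio of Mirlet7b to Mirlet7c-2 was 5.77 and that of Mir98 to Mirlet7f-2 -1.42. With either library left out, the log2 ratio was 6.35 to 7.07 for Mirlet7d to Mirlet7a-1, 6.25 to 7.47 for Mirlet7d to Mirlet7f-1, 5.59 to 5.63 for Mirlet7b to Mirlet7c-2 and -1.07 to -1.001 for Mir98 to Mirlet7f-2. No value could be had for Mirlet7d to Mirlet7f-1 in the unstranded column, where Mirlet7f-1 is at 0. With 0.5 CPM as pseudocount, all 9 genes kept the same 3 nearest genes. No paired analysis was possible because the series has a single group. Depth limits Mirlet7a-1 and Mirlet7f-1, with 222 and 238 counts in replicate 1, more than the other members. The limit of 3 counts set here for a count of 0 equals 3.47 CPM in replicate 1 and 1.38 CPM in replicate 2. The exact Poisson interval of a count of 0, as for Mir7k, reaches 4.26 CPM in replicate 1 and 1.69 CPM in replicate 2.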
